A study of Mus musculus with 8 samples.

Results

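Foxp3 binding sites at genes of the ubiquitin system were examined in regulatory T (Treg) cells, CD4+ T cells that hold immune responses in check and are defined by the transcription factor Foxp3. A listed site was given the protein-coding RefSeq gene that held its centre within the gene body or 5 kb of it, and otherwise the nearest gene end within 100 kb. Sites were kept when the gene symbol began with Usp, Ube2, Ube3, Rnf, Trim, Fbxo, Fbxw, Fbxl, Cbl, Peli or Herc followed by a digit or letter. The rule uses names and positions and no signal value. It took 112 of 5521 listed sites, of which 5210 had a gene at all, and these 112 lay at 56 genes. A further 290 of the 346 gene symbols that the rule matches had no listed site. The share of symbols with a site was 16.2% here and 12.6% over all 21900 protein-coding symbols.

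The assay was CUT&Tag: an antibody guides a transposase to chromatin, and the DNA cut there is sequenced. All cells were taken fresh from C57BL6/J mice (spleen and lymph nodes) and sorted as CD4+hCD2+GFP- cells, and no age or sex is given in the labels. WT cells had the genotype Foxp3WT-IRES-hCD2/Foxp3-IRES-GFP and R397W cells Foxp3R397W-IRES-hCD2/Foxp3-IRES-GFP. All 4 groups thus carried a Foxp3 allele with a GFP reporter, and the sort took cells without GFP. R397W is a missense change in the forkhead domain with which Foxp3 contacts DNA. Each genotype had 2 libraries made with an in-house rabbit polyclonal anti-Foxp3 antibody and 2 made with normal rabbit IgG, the background, at 0.5 µg. Cells were fixed in 0.1% formaldehyde for 2 minutes. Nothing in the labels ties replicates 1 and 2 to separate mice, so the p-values measure the spread between these libraries, which may be technical. The values are normalised read counts, whole reads multiplied by a factor per library, given by the authors for 3 site classes. These carry the names common, cTreg-specific and eTreg-specific. The classes were scaled separately, so a level set across classes mixes scales. Site positions are given in mm10, as deposited.

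Ubiquitin is attached to proteins by a relay in which an E1 enzyme activates it, an E2 enzyme carries it, and an E3 ligase chooses the target. RING ligases mostly hand ubiquitin over from the E2 directly, HECT ligases first take it onto themselves, and F-box proteins bring substrates to cullin-based ligases. Deubiquitinases, such as the USP family, remove it again. In T cells these enzymes set the strength of receptor signalling: Cbl-b, the product of Cblb, restrains activation, and Peli1 and Rnf125 also act on T cell signalling.

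The signal behind each value was thin and uneven between libraries. The 8 libraries held 111274 to 394196 reads over all listed sites and 1999 to 7085 reads over the 112 sites. In WT anti-Foxp3 replicate 1, 7.14% of the 112 sites had no read, against 53.6% in WT replicate 2. The corresponding shares were 19.6% and 63.4% in the R397W anti-Foxp3 libraries, and 28.6% to 70.5% in the IgG libraries. Reads were present in all 8 libraries at 18 of the 112 sites. Genes that define Treg cells (Foxp3, Il2ra, Ctla4, Ikzf2 and Ikzf4) all had listed sites, 23 in number. No B cell or myeloid marker gene of the lists used had one, and 1 of 5 CD8 T and NK cell markers did. RNA was not measured, so these are sites and not expression.

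Of the 112 sites, 8 overlapped the promoter window of their own gene, which runs from 250 bases before to 50 after a RefSeq transcription start. The 250 upstream bases of the 5 with the highest mean WT anti-Foxp3 signal are shown, because at these genes the listed site covers the start itself. They are from RefSeq (GRCm38.p6), 5′ to 3′ on the gene's strand: Rnf145 (chr11:44520039-44520288, plus strand), Usp12 (chr5:146794957-146795206, minus), Ube2f (chr1:91250054-91250303, plus), Fbxo11 (chr17:88064542-88064791, minus) and Rnf141 (chr7:110844382-110844631, minus). Capitals mark matches to the motifs searched.
Rnf145: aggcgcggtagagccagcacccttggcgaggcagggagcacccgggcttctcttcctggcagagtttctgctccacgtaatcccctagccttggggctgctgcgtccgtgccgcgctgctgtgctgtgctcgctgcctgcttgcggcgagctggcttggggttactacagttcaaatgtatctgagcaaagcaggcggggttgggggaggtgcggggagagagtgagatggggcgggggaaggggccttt
Usp12: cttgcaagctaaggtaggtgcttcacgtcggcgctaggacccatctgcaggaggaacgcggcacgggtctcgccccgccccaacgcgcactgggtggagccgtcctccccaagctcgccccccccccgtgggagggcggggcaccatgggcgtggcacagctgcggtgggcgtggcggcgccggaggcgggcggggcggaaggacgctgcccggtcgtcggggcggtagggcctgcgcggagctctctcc
Ube2f: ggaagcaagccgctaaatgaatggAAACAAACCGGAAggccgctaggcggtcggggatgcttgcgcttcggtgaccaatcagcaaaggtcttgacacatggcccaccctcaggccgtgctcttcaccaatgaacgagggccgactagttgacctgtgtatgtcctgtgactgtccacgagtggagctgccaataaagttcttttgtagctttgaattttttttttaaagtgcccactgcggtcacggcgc
Fbxo11: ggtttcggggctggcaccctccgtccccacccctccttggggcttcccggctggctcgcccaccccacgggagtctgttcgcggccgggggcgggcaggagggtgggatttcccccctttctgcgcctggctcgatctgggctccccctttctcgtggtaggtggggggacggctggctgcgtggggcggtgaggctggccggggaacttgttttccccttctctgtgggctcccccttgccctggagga
Rnf141: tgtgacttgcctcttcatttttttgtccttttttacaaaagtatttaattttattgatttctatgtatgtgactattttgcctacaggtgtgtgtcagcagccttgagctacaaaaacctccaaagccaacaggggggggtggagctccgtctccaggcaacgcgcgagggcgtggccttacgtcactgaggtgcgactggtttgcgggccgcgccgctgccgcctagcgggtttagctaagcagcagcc
The motifs, on both strands, were TGTTTAC (forkhead), TGANTCA (AP-1), TGTGGTT (RUNX), CCGGAA (ETS) and TTTGTTT (the unit of T-rich repeats). The share of all 32851 promoter windows that hold each was 3.17%, 6.75%, 4.40%, 12.0% and 8.74%, in that order. Of the 5 sequences, Ube2f alone held any: an ETS match 219 bases before the start, next to a T-rich match on the other strand. Neither the forkhead letters nor the AP-1 or RUNX letters occurred in these 5 windows. Of the 3 windows not printed, Usp31 held an AP-1 match 112 bases and Trim5 a RUNX match 54 bases before the start, and Fbxo42 held none. Rnf145, Usp12 and Fbxo11 were rich in G and C (64.4%, 74.8% and 70.8%), against a median of 52.4% over all windows.

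By role, RING-type ligases contributed the most genes, 22 with 42 sites, and deubiquitinases 13 genes with 38 sites. F-box proteins followed with 11 genes and 14 sites, E2 enzymes with 4 genes and 7 sites, and HECT ligases with 4 genes and 7 sites. A further 2 genes with 4 sites carry a matching symbol but encode no ubiquitin enzyme: Usp6nl, a GTPase-activating protein for Rab proteins, and Uspl1, a SUMO protease. The roles follow the symbols, and some members stray from them. For example, Trim14 lacks the RING domain of its family, and Ube2f carries the ubiquitin-like protein NEDD8.

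A single site was found at 35 of the 56 genes (62.5%), close to the share over all genes with a site (63.1%). At the other end, 6 genes with 4 or more sites held 43 of the 112. Usp24, a deubiquitinase, had 14 sites inside its body of 131 kb, and 10 genes in the whole list had as many or more. Cblb and Usp34, a deubiquitinase linked to Wnt signalling, had 8 sites each, Rnf19a had 5, and Peli1 and Ube2e3 had 4 each. Common sites made up 92 of the 112 (82.1%), cTreg-specific sites 13 (11.6%) and eTreg-specific sites 7 (6.25%). Over all 5210 sites with a gene the shares were 70.4%, 12.7% and 16.8%. None of the 38 deubiquitinase sites was eTreg-specific. Of the 7 eTreg-specific sites, 3 were at the genes that encode no ubiquitin enzyme, and without these the count was 4 of 108. All 3 sites of Usp3, a deubiquitinase of histones, were cTreg-specific, and Rnf157 had 1 site of each specific class and no common one. These are counts of the authors' classes and were not tested.

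**Figure D1:**
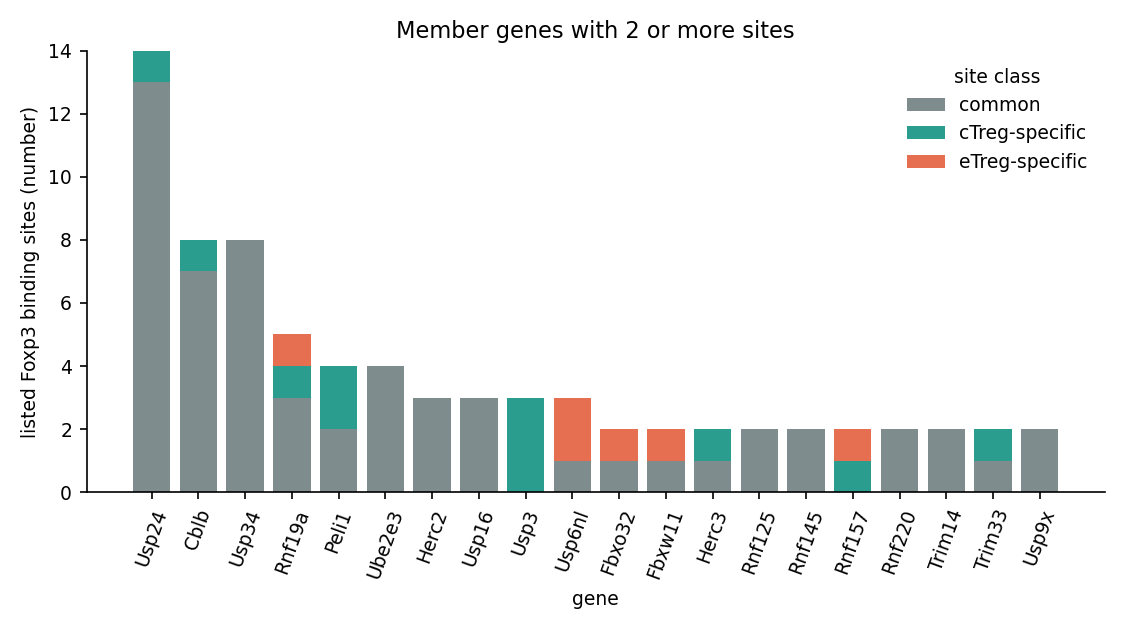
Number of listed Foxp3 binding sites (vertical axis) at each of 20 genes with 2 or more sites, coloured by the authors' site class. Usp24 stands highest with 14 sites, followed by Cblb and Usp34 with 8 each, and most bars are grey, the common class.

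Most sites lay within genes. The centre was inside the gene body for 82 of the 112 sites (73.2%, against 67.3% of all sites with a gene). Measured from the nearer gene end, 16 sites lay within 1 kb, 73 inside and farther than 1 kb, and 23 outside and farther than 1 kb. Rnf145 and Fbxo11 count among the 73, because their site sits at a start inside the longest annotated span of the gene.

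The highest WT anti-Foxp3 signal was at Rnf145, a ligase of the endoplasmic reticulum that acts in sterol metabolism. At its promoter site (chr11:44520133-44520533) the normalised read counts with anti-Foxp3 were 329 and 282 (WT) and 515 and 191 (R397W). With IgG they were 217 and 50.3 (WT) and 201 and 244 (R397W). Both WT anti-Foxp3 values exceeded both WT IgG values, and 99.2% of common sites had a lower WT mean. In R397W cells the anti-Foxp3 values lay on either side of the IgG values. The WT difference from IgG was 1.53 ± 0.57 on the log2 scale (SE, n = 2 against 2), with an adjusted p of 0.991 by limma. The genotype difference was 0.04 ± 0.56 (adjusted p = 1 by limma).

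The next highest was a cTreg-specific site inside Cblb (chr16:52147355-52147755). Anti-Foxp3 libraries read 274 and 130 (WT) and 170 and 0 (R397W), and IgG libraries 224 and 79.0 (WT) and 97.3 and 33.9 (R397W). The anti-Foxp3 and IgG values overlapped in both genotypes, and so did the genotypes, because the first R397W library was above the second WT library. The fitted genotype difference was -3.86 ± 2.31 log2 (adjusted p = 1 by limma), and its size rests on the R397W replicate with no read: leaving out either R397W or WT libraries in turn gave -7.57 to -0.15.

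Next came a site at the end of Usp2, a deubiquitinase of cyclin D1 (chr9:44066776-44067176). It read 143 and 245 (WT) and 97.1 and 265 (R397W) with anti-Foxp3, against 206 and 290 (WT) and 47.5 and 140 (R397W) with IgG. IgG was thus as high as anti-Foxp3 in WT cells. Fbxo46, an F-box gene, read 143 and 227 in WT and 223 and 175 in R397W anti-Foxp3 libraries, with IgG at 70.2 to 183. Its genotypes overlapped, with a fitted difference of 0.13 ± 0.53 log2.

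Rnf19a, which encodes a RING-type ligase, had its strongest site 20.6 kb from the gene (chr15:36303510-36303910). The WT anti-Foxp3 values there were 184 and 148 and the WT IgG values 69.4 and 97.0. In R397W cells 1 anti-Foxp3 library was at 249, the highest of all 8, and the other had no read. The fitted genotype difference was -3.39 ± 2.42 log2 (adjusted p = 1 by limma), and without the library that had no read it was 0.59. Usp12 is a deubiquitinase that works with a WD-repeat cofactor, and its promoter site (chr5:146794892-146795292) ran the other way. It read 114 and 186 in WT anti-Foxp3 and 288 and 388 in WT IgG, so that IgG was above anti-Foxp3 in every WT library. The difference was -1.19 ± 0.67 log2 (adjusted p = 0.991 by limma).

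**Figure D2:**
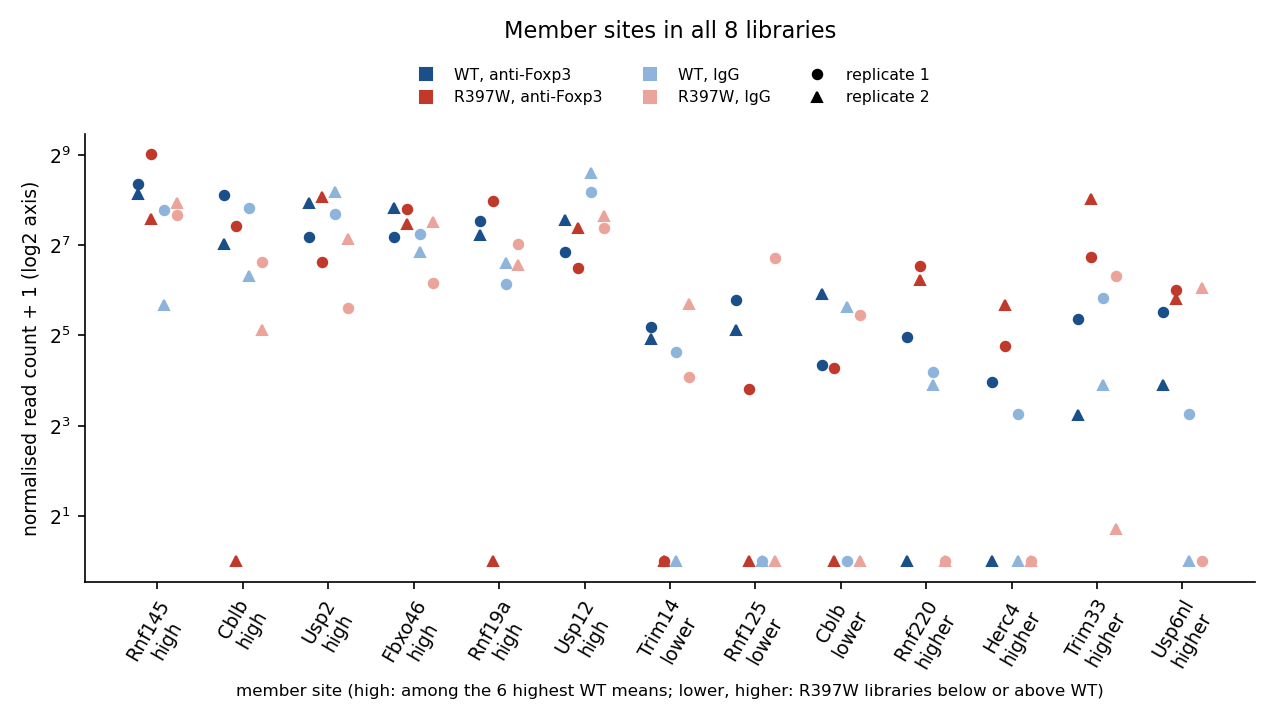
Normalised read count plus 1 (vertical axis, log2) in each of the 8 libraries at 13 sites, each point 1 library, with colour for genotype and antibody and shape for replicate. At Usp12 both WT IgG points (288 and 388) lie above both WT anti-Foxp3 points (114 and 186), and at the weaker sites single libraries lie at 0.

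Signal over IgG was set out by the place of the site. Ratios were taken of the mean normalised read count over sites, anti-Foxp3 over IgG, for the 2 libraries that share a cell sample name. The factors matched median-of-ratios factors, which centre the libraries on sites with reads in all 8. A ratio of 1 is therefore relative to such sites, and a difference shared by them would not show. They made up 10 of the 16 sites at gene ends and 6 of the 73 deeper in genes. The part of this scaling in the ratios was not tested. At the 16 sites within 1 kb of a gene end the mean was 69.9 and 80.1 in WT anti-Foxp3 and 84.9 and 107 in WT IgG, and the ratio was 0.785 ± 0.0536 (SD, n = 2). In R397W cells it was 0.755 ± 0.137. The mean over the 16 sites was thus lower with anti-Foxp3 than with IgG in all 4 pairs, but not site by site. In WT cells the IgG mean was the higher one at 7 of the 16, and the median fitted difference was 0.03 log2. The 7 RING-type sites among them had ratios of 2.02 and 1.17 in the WT pairs, above IgG, and of 0.911 and 0.521 in the R397W pairs. All 667 sites within 1 kb of a gene end had ratios of 0.919 ± 0.0235 in WT and 0.972 ± 0.0307 in R397W cells.

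The 73 sites deeper in genes stood above IgG in their mean, but not site by site. Their mean was 43.4 and 21.9 in WT anti-Foxp3 and 27.0 and 9.82 in WT IgG, a ratio of 1.92 ± 0.444, and in R397W cells the ratio was 1.35 ± 0.00884. Single libraries of the 2 antibodies overlapped in both genotypes. In WT cells the IgG mean was the higher one at 14 of the 73, and the median fitted difference was 1.41 log2. In R397W cells the median was 0 log2, with 36 sites above IgG and 30 below. All 3153 listed sites deeper in genes had ratios of 1.55 ± 0.236 in WT and 1.10 ± 0.0286 in R397W cells. The 23 sites outside genes gave 1.91 ± 1.24 in WT and 2.60 ± 1.23 in R397W cells, too wide a spread to set the genotypes apart. Over all 112 sites the ratio was 1.31 ± 0.206 in WT and 1.20 ± 0.0304 in R397W cells, against 1.39 ± 0.224 and 1.08 ± 0.0133 over all listed sites. No exact permutation test of 2 against 2 can give a p below 0.33, and no test was made of these ratios.

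The same measure was taken by role. The 42 RING-type ligase sites had a WT ratio of 2.03 ± 0.149 and an R397W ratio of 1.37 ± 0.0452, so the genotypes did not overlap. Nor did they overlap over all listed sites, with 1.54 and 1.23 in the WT pairs and 1.07 and 1.09 in the R397W pairs. The 38 deubiquitinase sites had 0.696 ± 0.143 in WT and 1.13 ± 0.0783 in R397W cells, the opposite order. The deubiquitinase mean is led by 3 sites at gene ends, those of Usp2, Usp12 and Usp31, with a WT ratio of 0.602 ± 0.0593. The other 35 deubiquitinase sites gave 1.26 and 0.320 in the WT pairs and 1.45 and 1.44 in the R397W pairs. The second pair of each genotype rests on few sites. In R397W replicate 2, 34 of the 35 sites had no anti-Foxp3 read and 32 no IgG read. The anti-Foxp3 reads there, 57 in number, all lay at a single Usp24 site. In WT replicate 2 the sites without a read were 30 with anti-Foxp3 and 31 with IgG. The 35 RING-type sites away from gene ends gave 2.19 ± 0.404 in WT and 1.64 ± 0.284 in R397W cells. In WT anti-Foxp3 replicate 2, 78.9% of the deubiquitinase sites and 38.1% of the RING-type sites had no read, and the part of read depth in these ratios was not tested.

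**Figure D3:**
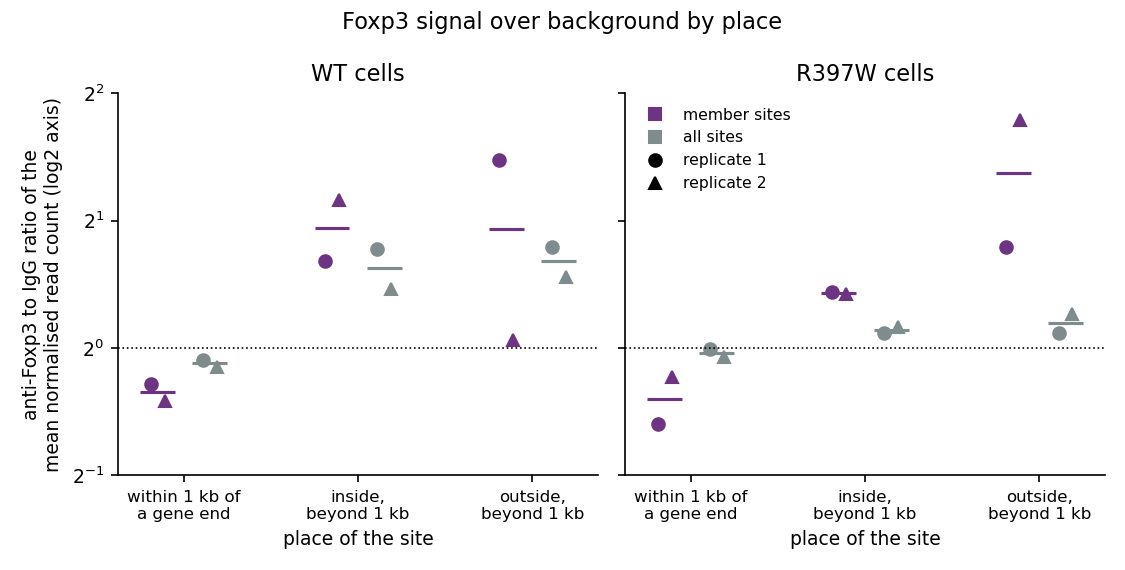
Ratio of mean normalised read count, anti-Foxp3 over IgG (vertical axis, log2), by place of the site, for the ubiquitin-gene sites (purple) and all sites (grey), each point 1 pair of libraries and each bar their mean. At gene ends all 4 purple points lie below 1, with means of 0.785 and 0.755, while sites deeper in genes lie above 1.

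The genes with the most sites differed in level. The 8 Cblb sites lay from 25.1 to 169 kb along the gene as measured from its lower coordinate end, and their WT anti-Foxp3 means ranged from 3.03 to 202 with a median of 54.0. Averaged over the 8, the anti-Foxp3 level was 100.4 and 35.8 (WT) and 56.7 and 23.1 (R397W), and the IgG level 43.4 and 16.0 (WT) and 60.3 and 16.8 (R397W). The ratio over IgG was 2.28 ± 0.0507 in WT and 1.16 ± 0.307 in R397W cells, with WT higher in both pairs. WT was also higher in both pairs over all listed sites (1.54 and 1.23 against 1.07 and 1.09). The Cblb averages pool 7 common sites with 1 cTreg-specific site, and these classes were scaled separately, so the ratio depends on that mix. No Cblb site passed the threshold in any comparison, and 1 site (chr16:52060922-52061322) gave 250 in the first WT anti-Foxp3 library and 2.79 in the second.

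The Usp24 and Usp34 sites were near the floor. The WT anti-Foxp3 means of the 14 Usp24 sites ranged from 0 to 8.49, and those of the 8 Usp34 sites from 0 to 18.8. In replicate 1 the average was 8.40 at Usp24 and 9.55 at Usp34, and in replicate 2 it was 0.0333 and 0. At Usp24 the ratio over IgG was 0.671 and 0.0101 in the WT pairs and 2.08 and 2.14 in the R397W pairs. The value of 0.0101 rests on 1 anti-Foxp3 read against 93 IgG reads at another site. The value of 2.14 rests on 57 anti-Foxp3 reads at 1 site against 27 IgG reads at another. In both of these R397W libraries 13 of the 14 sites had no read. The 5 Rnf19a sites had WT means of 8.84 to 166, the 4 Peli1 sites 2.43 to 36.4, and the 4 sites of Ube2e3, an E2 enzyme, 8.49 to 109.

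**Figure D4:**
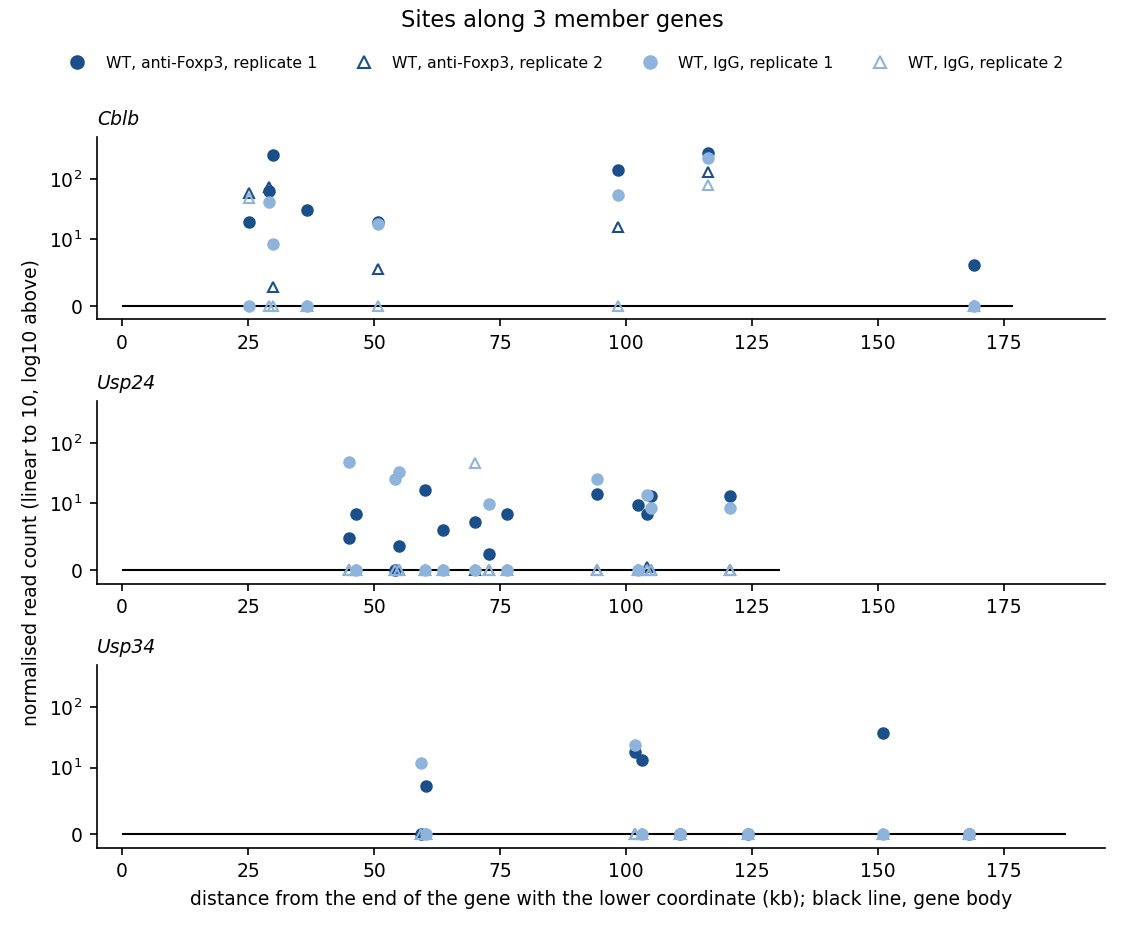
Normalised read count (vertical axis, linear to 10 and log10 above) in the 4 WT libraries at each site, by distance from the gene's lower coordinate end in kb (horizontal axis), for Cblb, Usp24 and Usp34, with the gene body as a black line. Cblb sites reach 274 in the first anti-Foxp3 library, while all Usp24 sites lie at 17.0 or below in both anti-Foxp3 libraries.

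The first comparison asked whether anti-Foxp3 signal at these sites differed between R397W and WT cells. The scale is relative here too, because the factors centre the libraries on sites with reads in all 8. A genotype difference shared by those sites would not show. By limma on log2(normalised read count + 1), none of the 112 sites passed an adjusted p of 0.05, and neither did any of the 5521 sites (0.0%). At an unadjusted p under 0.05 there was 1 site higher in R397W and 0 lower, beside 0.0543% and 0.272% of all sites. On recovered reads edgeR and DESeq2 also called 0. At an unadjusted p under 0.05, edgeR gave 1 site higher and 0 lower (all sites, 0.22% and 0.513%), and DESeq2 gave 0 higher and 1 lower (all sites, 0.257% and 0.843%). The fitted difference was below 0 at 62 sites (all sites, 60.4%) and above 0 at 45 (all sites, 38.5%), with a median of -0.20 log2 against -0.39 over all sites. The WT and R397W libraries did not overlap at 13 sites: 5 with R397W higher (4.46%, all sites 6.43%) and 8 with R397W lower (7.14%, all sites 12.6%). These shares are no larger than those of the whole list. The result depends on 1 library: without WT anti-Foxp3 replicate 2, whose values are 0 at 60 of the 112 sites, 16 sites were called, all lower in R397W, together with 643 of the whole list. That fit has a single WT library, which is assumed to vary as the R397W libraries do.

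Among the sites that did not overlap, Trim14, which acts in antiviral signalling, had the most negative difference. At chr4:46508033-46508433 it read 35.2 and 29.3 (WT) and 0 in both R397W libraries with anti-Foxp3. With IgG it read 23.8 and 0 (WT) and 15.8 and 50.9 (R397W). It was the only one of the 112 sites with reads in both WT and in neither R397W anti-Foxp3 library (0.893%, against 2.12% of all sites). These WT values rest on 29 and 63 reads. The fitted difference was -5.05 ± 3.29 log2 (adjusted p = 1 by limma), which depends on the pseudocount because both R397W values are 0.

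Rnf125 had 2 sites. The one inside the gene at chr18:20958723-20959123 read 54.6 and 34.0 (WT) and 13.1 and 0 (R397W) with anti-Foxp3, while both WT IgG libraries were at 0 and R397W IgG read 104 and 0. Both WT anti-Foxp3 libraries were thus above both of R397W, and an R397W IgG library had the highest value. The genotype difference was -3.55 ± 2.92 log2 (adjusted p = 1 by limma). The other site, closer to the gene's lower coordinate end, read 119 and 0.931 (WT) and 78.8 and 13.5 (R397W) with anti-Foxp3, and its genotypes overlapped.

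A second Cblb site (chr16:52056138-52056538) read 19.4 and 59.6 in WT and 18.4 and 0 in R397W anti-Foxp3 libraries. Here the gap between the nearest WT and R397W libraries was small, and WT IgG reached 48.8. Fbxo11, an F-box protein that targets BCL6 and the only one of the 5 promoter sites above where R397W anti-Foxp3 values were all lower, was picked out after its values were seen. With anti-Foxp3 it read 108 and 124 (WT) against 34.1 and 27.1 (R397W), and with IgG 90.5 and 154 (WT) against 20.4 and 86.5 (R397W). IgG was also lower in R397W cells there, and the genotype difference in anti-Foxp3 over IgG was -0.44 log2 (adjusted p = 1.00 by limma). The genotype difference itself was -1.90 ± 0.90 log2 (adjusted p = 1 by limma). Rnf141, another of the 5 promoter sites, went the other way without overlap. With anti-Foxp3 it read 83.7 and 92.2 (WT) against 126 and 171 (R397W), a fitted difference of 0.74 ± 0.64 log2. With IgG it read 99.8 and 73.1 (WT) against 149 and 235 (R397W), so IgG was also higher in R397W cells there.

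Sites higher in R397W were led by Rnf220, a ligase with roles in neural development. At chr4:117478107-117478507 it read 30.3 and 0 (WT) and 91.9 and 74.1 (R397W) with anti-Foxp3, and 17.2 and 13.9 (WT) and 0 in both R397W libraries with IgG. Both R397W anti-Foxp3 values were above every other library, and the fitted difference was 3.90 ± 2.29 log2 (adjusted p = 1 by limma). Trim33, a co-regulator of SMAD signalling, had a site 26.2 kb from the gene (chr3:103384816-103385216). It read 40.0 and 8.38 (WT) and 105.0 and 260 (R397W) with anti-Foxp3, and 55.5 and 13.9 (WT) and 79.2 and 0.636 (R397W) with IgG. R397W was above WT in all pairings, and this was the 1 site with an unadjusted p under 0.05 (3.08 ± 1.15 log2, adjusted p = 1 by limma).

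Herc4, a HECT ligase, had a site 11.9 kb away that read 14.6 and 0 (WT) and 26.3 and 50.3 (R397W) with anti-Foxp3. Its IgG libraries read 8.59 and 0 (WT) and 0 in both R397W libraries. The site in Usp6nl read 44.9 and 14.0 (WT) and 63.0 and 54.8 (R397W) with anti-Foxp3. With IgG it read 8.59 and 0 (WT) and 0 and 64.9 (R397W), so 1 R397W IgG library was above both R397W anti-Foxp3 values. At both sites, the gap between the nearest WT and R397W anti-Foxp3 libraries was smaller than the spread between the WT ones. The adjusted p was 1 at each by limma.

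**Figure D5:**
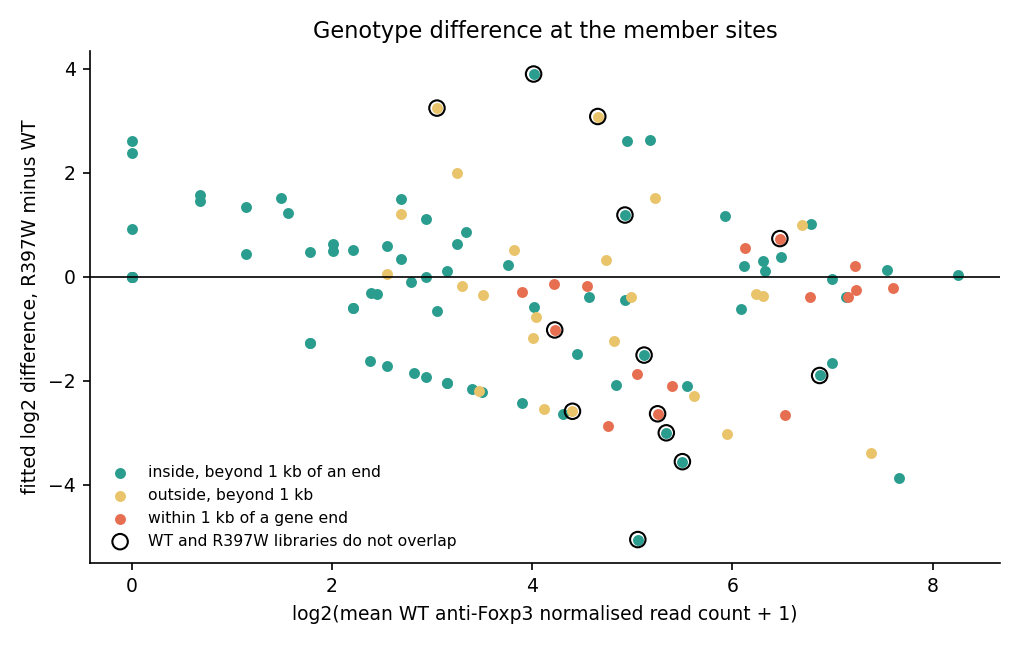
Fitted log2 difference, R397W minus WT anti-Foxp3 (vertical axis), against log2 of the mean WT normalised read count plus 1 (horizontal axis), 1 point for each of the 112 sites, coloured by place. Circled sites are the 13 where the WT and R397W libraries do not overlap, and they lie on both sides of 0, from -5.05 at Trim14 to 3.90 at Rnf220.

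The second comparison asked where anti-Foxp3 exceeded IgG, on the same relative scale. In WT cells 0 of the 112 sites passed the adjusted threshold, beside 4 of 5521 (0.0725%), and edgeR and DESeq2 called 0. At an unadjusted p under 0.05 limma gave 2 sites above IgG, Rnf145 and Rnf157, and 0 below (all sites, 2.41% and 0.163%). By the same threshold edgeR gave 0 above and 0 below (all sites, 0.598% and 0.163%), and DESeq2 1 above and 0 below (all sites, 3.55% and 0.0181%). The median difference was 1.39 log2, against 1.27 over all sites. Both anti-Foxp3 values exceeded both IgG values at 19 sites (17.0%, all sites 19.5%), and the reverse held at 2 sites (1.79%, all sites 4.84%), namely Usp12 and Fbxo42. Without WT anti-Foxp3 replicate 2 the call count was 4, beside 189 over the whole list.

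Of the 19, the Rnf125 site described above had the largest fitted difference, 5.46 ± 3.26 log2 (adjusted p = 0.991 by limma), with 0 reads in both IgG libraries. Rnf157, whose protein is a ligase studied in neurons, read 87.5 and 165 in WT anti-Foxp3 and 42.9 and 0 in WT IgG at a cTreg-specific site (chr11:116377013-116377413). Its WT anti-Foxp3 values were above IgG in both libraries by 4.19 ± 1.95 log2 (adjusted p = 0.991 by limma). R397W anti-Foxp3 read 48.9 and 276 there, so the genotypes overlapped.

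A second Trim14 site, 0.733 kb from a gene end, read 48.5 and 34.0 in WT anti-Foxp3 and 13.2 and 0 in WT IgG. A second Rnf19a site, 78.3 kb out, read 69.1 and 27.0 against 15.2 and 0, and a Cblb site at chr16:52060207-52060607 read 64.3 and 72.6 against 41.6 and 0. A Ube2e3 site 49.4 kb from the gene read 29.1 and 1.86 in WT anti-Foxp3 and had no read in any IgG library. The fitted differences at these 4 sites lay between 3.21 and 3.46 log2, and none passed the threshold. At 17 of the 112 sites (15.2%, all sites 8.48%) no IgG library had a read.

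In R397W cells the comparison with IgG called 0 of the 112 sites and 0 of 5521 (0.0%) by limma, edgeR and DESeq2. At an unadjusted p under 0.05, limma gave 2 sites above IgG and 1 below (all sites, 0.906% and 0.561%), edgeR 0 and 0 (all sites, 0.254% and 0.109%), and DESeq2 2 and 1 (all sites, 1.07% and 0.398%). The median difference was 0 log2, against 0.05 over all sites. Both anti-Foxp3 values exceeded both IgG values at 11 sites (9.82%, all sites 10.4%), and both were below at 9 sites (8.04%, all sites 7.84%). The test of the genotype difference in anti-Foxp3 over IgG called 0 of 112 and 0 of 5521 (0.0%) with each tool. At an unadjusted p under 0.05, limma and edgeR gave 0 of the 112 sites with a larger and 0 with a smaller difference in R397W. Over all sites limma gave 0.272% and 1.38%, and edgeR 0.254% and 0.29%. DESeq2 gave 1 larger and 2 smaller (all sites, 0.29% and 1.68%). Its median was -0.61 log2, R397W minus WT, against -1.02 over all sites. Without WT anti-Foxp3 replicate 2 it called 4 sites, all with the smaller difference in R397W, beside 182 over the whole list. The genotype comparison and this one share the anti-Foxp3 libraries, so they are not independent.

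Among ligases and deubiquitinases studied in T cells, 8 of the 23 genes of the list used had a site, 20 sites in all, of which 17 were common, 3 cTreg-specific and 0 eTreg-specific. None of the 20 passed the threshold in any comparison. Cblb, Peli1 and Rnf125 are given above in part. The strongest Peli1 site, 30.5 kb beyond the gene, read 72.8 and 0 in WT anti-Foxp3, 55.1 and 9.66 in R397W, and at most 6.61 in any IgG library. Signal was thus seen in the first library of each genotype and, at a lower level still above IgG, in the second R397W library. Its fitted genotype difference was 1.51 ± 3.10 log2 by limma and -0.17 by edgeR, so the sign depends on the tool. Rnf20, which monoubiquitinates histone H2B, read 15.8 and 0 in WT and 18.4 and 0 in R397W, with 111 in 1 R397W IgG library. Usp4 (20.6), Usp8 (15.8), Usp25 (9.70) and Usp9x (1.21) had reads in the first WT anti-Foxp3 library and none in the second. Genes of the list without a listed site included Usp7, Usp22, Rnf31 and Ube2n.

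Genes of the pathway that the symbol rule does not take, such as cullins, TRAF proteins and other deubiquitinase families, were looked up as well. Of 87 such genes, 34 had sites, and no TRAF gene was among the 34. The sites were 68 in number (52 common, 7 cTreg-specific and 9 eTreg-specific). Znrf1, a RING ligase, had 7 of them, and Birc6, an inhibitor of apoptosis with E2 activity, and Tnfaip3, which encodes the NF-κB inhibitor A20, had 5 each. None was called in any comparison. Their median difference was -0.30 log2 between the genotypes and 1.31 log2 for WT anti-Foxp3 over IgG, close to the medians of the 112 sites. The median genotype difference in anti-Foxp3 over IgG was farther apart, at -1.71 log2 against -0.61 at the 112 sites and -1.02 over all sites.

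Within a class and library, the share of reads at the sites does not depend on the library's factor. The 92 common sites, 2.39% of that class, held 1.80% to 2.06% of its reads in the anti-Foxp3 libraries and 1.87% to 2.09% in the IgG libraries. The 13 cTreg-specific sites, 1.79% of their class, held 1.37% to 2.32% in the anti-Foxp3 libraries and 1.05% to 1.97% in IgG. The 7 eTreg-specific sites, 0.739% of their class, held 0.367% to 1.29% and 0.455% to 1.30%. The ranges for anti-Foxp3 and IgG overlapped in every class.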

How the data were processed

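The deposited values are a normalised read signal per library and site. The submitters' processing notes list Bowtie2 2.5.2, DiffBind 3.12.0, mm10 and dm6 without saying what each was used for; site calling, pooling and duplicate removal are not given in the sources used here. Within each library and class, 100% of values above 0 were whole multiples of 1 read's value (tolerance 0.01), and each factor matched a median-of-ratios size factor computed from that class. The signal was described as spike-in normalised by the authors.

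Libraries were grouped by title. Sites were given genes from RefSeq (GRCm38.p6), and gene ends stand for start sites except where a promoter entry exists (44 of the 56 genes). The tests were limma 3.58.1 in R 4.3.3 (trended, two-sided) on log2(value + 1), adjusted by Benjamini-Hochberg across the 5521 sites, with 0.05 as the threshold. The genotype test used the 4 anti-Foxp3 libraries, and the others all 8. This scale understates the change of weak sites. Whole reads were tested with edgeR 4.0.16 and DESeq2 1.42.0 using the deposited factors. The scripts were tested on simulated data. Further settings tried were a pseudocount of 0.5 or 5, dropping the lowest 25% of sites, equal totals, a replicate block, no trend, a 10 kb gene limit and each library left out.

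Named sites were those called, the 6 with the highest WT mean, the 4 largest differences each way among those not overlapping, the 6 largest WT differences above IgG, the genes with the most sites, and the T cell list. The 112 sites and all lists, and the 1 kb division, were chosen with earlier results of these data known. The named site of 1 gene is not reported here, nor is that gene drawn by name. Site sequences, exons and introns were not analysed here. Reads in sites are not library depths.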

Additional observations from a re-analysis of the deposited data

Results flagged for a closer look

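At 3 of the named sites the anti-Foxp3 minus IgG difference had opposite signs in the genotypes in every replicate. At Usp2 the mean difference was -0.38 log2 in WT and 0.97 in R397W cells. At Trim14 (chr4:46508033-46508433) it was 2.73 in WT and -4.89 in R397W cells. At the Trim33 site it was -0.57 in WT and 3.86 in R397W cells. The test of the genotype difference itself gave unadjusted p-values of 0.208, 0.103 and 0.163 by limma, with an adjusted p of 1.00 for each. With 2 libraries a group, opposite signs in every replicate occurred at 7 of the 112 sites (6.25%) and at 319 of all 5521 (5.78%).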

How the results depend on the processing

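Over the 4 comparisons, 0 of the 112 sites were called under both pseudocounts, the filter, equal totals, the replicate block, no trend, edgeR, DESeq2 and the 10 kb limit. Leaving out libraries gave 0 to 16 called sites for the genotypes, 0 to 4 for WT over IgG, 0 to 0 for R397W over IgG and 0 to 4 for the difference between them; the higher values all came without WT anti-Foxp3 replicate 2. The median genotype difference ran from -1.62 to 0.71 log2 without single libraries.

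The replicate block left the median genotype difference at -0.20 log2. The numbers are not tied to shared animals in the labels, and the correlations of same-numbered deviations were 0.167, 0.0375 and 0.135.

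With the 10 kb limit there were 8 cTreg-specific and 4 eTreg-specific sites. With the 100 kb limit but without Uspl1 and Usp6nl, a setting added after seeing the data, there were 4 eTreg-specific sites. Shares of reads are given where they moved by more than 1 SD between replicates. With the 10 kb limit the share of class reads at common sites was 1.64% (WT anti-Foxp3), 1.71% (R397W anti-Foxp3), 1.90% (WT IgG) and 1.80% (R397W IgG), at cTreg-specific sites 1.74% (WT anti-Foxp3), 1.26% (WT IgG) and 0.839% (R397W IgG), and at eTreg-specific sites 0.904% (R397W anti-Foxp3). Without the site with the most reads the shares were 1.97% (R397W anti-Foxp3), 1.80% (WT IgG) and 1.82% (R397W IgG) at common sites, 1.20%, 0.966% and 0.799% (WT anti-Foxp3, WT IgG and R397W IgG) at cTreg-specific sites, and 0.457% (R397W anti-Foxp3) at eTreg-specific sites.

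Between limma and edgeR the sign of the genotype difference turned at 11 of 107 sites, and likewise between limma and DESeq2. Of the 21 named sites these were Peli1 (-0.17 by edgeR and -0.17 by DESeq2) and the Rnf125 site near the gene end (-0.38 and -0.38). Without single libraries it turned at 10 of the same 21, with ranges of -0.67 to 0.76 at Rnf145, -0.94 to 0.50 at Usp2, -0.20 to 0.46 at Fbxo46, -7.37 to 0.59 at Rnf19a, -0.70 to 0.18 at Usp12, -1.59 to 4.61 at Peli1, -1.82 to 4.14 at Rnf125, -2.03 to 2.24 at Rnf20, -0.57 to 3.49 at Usp9x and -1.71 to 2.91 at Usp25. The cause was not tested. The 2 libraries per group and the many sites without reads limit what could be detected: a difference not called is not shown to be absent.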

Other observations

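In R397W cells, 3 sites chosen after their values were seen had an unadjusted p under 0.05 against IgG by limma. The site 15.1 kb from Fbxl21, an F-box gene, read 118 and 96.0 in anti-Foxp3 and 20.4 and 0 in IgG, and in WT cells 192 and 14.0 against 30.4 and 56.2. The common site in Herc3, a HECT ligase, read 70.9 and 145 against 79.2 and 0, so that its libraries overlapped. The strongest Rnf19a site was the other such site, with anti-Foxp3 at 249 and 0 and IgG at 129 and 92.9. None passed the adjusted threshold.

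The 3 cTreg-specific sites of Usp3 had WT anti-Foxp3 values of 3.37 to 47.1 in replicate 1 and 0.516 to 7.22 in replicate 2, and their R397W values were 32.0 to 70.8 in replicate 1 and 0 in replicate 2.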
